A study of Homo sapiens with 8 samples.

Results

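The genes described here are 51 chromatin regulators, which add or remove methyl and acetyl groups on histones, methylate or oxidize cytosines in DNA, or bind such marks as part of Polycomb and HP1 complexes. They were taken by symbol from the gene counts of NB4 cells in which KDM3B, an H3K9 demethylase, had been silenced, and the other H3K9 demethylases were left out. All 51 symbols were listed in each of the 8 libraries, among 37526 gene names that the libraries shared. NB4 cells were derived from acute promyelocytic leukemia (APL) and express the fusion protein PML/RARα. In the shKDM3B group the cells were stably transduced with an shRNA against KDM3B in the lentiviral vector pLVX-shRNA2-puro. The shNC group carried the control vector, which the labels call empty and the study's methods describe as a scrambled shRNA. Which of the KDM3B shRNAs was sequenced was not given, and the transduced cells were not described as single clones. The shNC_ATRA and shKDM3B_ATRA groups are the same kinds of cells after 1 µM all-trans retinoic acid (ATRA), for which the labels name 24 or 48 h without saying which applied to these libraries. Each of the 4 groups had 2 libraries.

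Chromatin regulators are commonly grouped as writers that place a mark, erasers that remove it and readers that bind it. Methylation of histone H3 at lysine 4 is found at active promoters, at lysine 36 along transcribed genes, and at lysines 9 and 27 in silenced chromatin. In APL, PML/RARα holds retinoid target genes in a silenced state together with corepressors and histone deacetylases, and ATRA releases this block and drives the cells towards granulocytes. The comparisons below ask whether the mRNAs of other chromatin regulators differed when KDM3B was silenced, with and without ATRA, and whether they changed with ATRA in either kind of cell.

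Promoters are shown for KDM5B, which was called in all 4 pairwise comparisons, SETD7, which was called higher under knockdown in untreated cells and lower with ATRA, and KDM6B, which rose with ATRA in both kinds of cells. They were chosen after their values were seen, and the 250 bases before their RefSeq start (GRCh38.p14) are shown 5′ to 3′ on the strand of the gene. Capitals mark matches to the motifs searched, and every match here was a GC box, the core sequence bound by SP and KLF factors. For KDM5B the window is chr1:202808422-202808671 on the minus strand, for SETD7 chr4:139556220-139556469 on the minus strand, and for KDM6B chr17:7833967-7834216 on the plus strand, the upstream one of 2 listed starts.
KDM5B: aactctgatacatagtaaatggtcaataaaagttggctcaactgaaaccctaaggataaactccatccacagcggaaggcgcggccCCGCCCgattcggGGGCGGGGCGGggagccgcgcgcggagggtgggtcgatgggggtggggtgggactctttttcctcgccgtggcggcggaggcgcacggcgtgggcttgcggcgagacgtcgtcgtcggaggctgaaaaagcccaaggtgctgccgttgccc
SETD7: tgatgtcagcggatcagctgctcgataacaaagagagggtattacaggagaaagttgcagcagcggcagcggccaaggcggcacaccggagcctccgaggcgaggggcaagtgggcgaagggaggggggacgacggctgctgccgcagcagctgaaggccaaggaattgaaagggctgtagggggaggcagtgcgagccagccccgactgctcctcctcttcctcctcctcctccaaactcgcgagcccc
KDM6B: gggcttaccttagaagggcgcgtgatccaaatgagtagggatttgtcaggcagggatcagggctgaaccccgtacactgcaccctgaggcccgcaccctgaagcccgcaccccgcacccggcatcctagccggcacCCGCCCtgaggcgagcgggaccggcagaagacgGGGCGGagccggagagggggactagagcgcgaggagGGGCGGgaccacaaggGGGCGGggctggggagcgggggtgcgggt
KDM5B had 3 GC boxes and 27 CG dinucleotides, KDM6B 4 GC boxes and 21 CG dinucleotides, and SETD7 no match and 16 CG dinucleotides. The search covered, on both strands and in windows of the same length, the retinoid receptor core AGGTCA or GGGTCA, the GC box GGGCGG, the MYC E-box CACGTG, the AP-1 site TGACTCA or TGAGTCA, the PU.1 site GAGGAAGT or GAGGAACT and the E2F site TTTCCCGC, TTTGGCGC, TTTGCCGC or TTTCGCGC. RefSeq windows were listed for 44 members (82 windows) and not for SETD1B, ASH2L, DOT1L, TRIM28, CBX2, CBX8 and HDAC5. A GC box was in 59.8% of the members' windows and 42.6% of all 35116 windows, an E-box in 15.9% and 6.34%, and a retinoid receptor core in 25.6% and 22.4%. The AP-1 site was in 0 of the members' windows and in 4.2% of all windows, and the PU.1 and E2F sites were each in 3.66% of the members' windows, against 3.19% and 2.79%. The members' windows also had a higher median GC content, 67.2% against 58.0% in all windows, and its part in these shares was not tested.

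Between 9708739 and 33017787 reads were counted on genes per library, with 19444480 or more in each untreated library and 16882512 or fewer in each ATRA library. The libraries did not stand alike in the reads that fell outside genes. These made up 8.49 to 9.62% in the untreated libraries and 9.36% in shNC_ATRA replicate 1, but 50.02% in shNC_ATRA replicate 2 and 51.45 and 51.05% in the shKDM3B_ATRA libraries. The shNC_ATRA libraries therefore lie on either side of this split, and the number of members called is also given without each of them. The comparison of shKDM3B_ATRA with shKDM3B coincides with the split, so an effect of ATRA and an effect of the split cannot be told apart there. The strand setting of the counting, and whether it was the same for all libraries, was not given in the sources used here. A value compared across the split may therefore rest on libraries counted differently, which was not tested, and reads from genes that overlap on opposite strands may be shared. The untreated files also list 56470 gene names and the ATRA files 56609, of which 37526 are shared. This difference coincides with ATRA in both ATRA comparisons, and its part in the values was not tested.

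KDM3B had 187 and 188 CPM in shNC (the count relative to library size, scaled by the TMM method over all 8 libraries), and 76.3 and 86.2 in shKDM3B. It had 196 and 121 CPM in shNC_ATRA and 52.5 and 57.4 in shKDM3B_ATRA, so the knockdown libraries were below their controls in both settings. Of 8 promyelocyte markers, MPO, CTSG, CD33, CEBPA and SPI1 were well counted in every untreated library, the lowest value being 63.0 CPM for CD33, whereas the granule genes ELANE, PRTN3 and AZU1 stayed at 1.47 CPM or less in all 8 libraries. The summed level of these 8 genes, most of it MPO, was 4809 to 5869 CPM in shNC, 8854 to 10085 in shKDM3B, 1115 to 1436 in shNC_ATRA and 2689 to 3556 in shKDM3B_ATRA. The 8 granulocytic markers summed to 431 to 452 CPM in shNC, 253 to 267 in shKDM3B, 8455 to 9433 in shNC_ATRA and 3786 to 4391 in shKDM3B_ATRA. With ATRA in shNC cells 8 of 8 were called higher, in untreated cells 4 of 6 tested were called lower in shKDM3B than in shNC, and 7 of 8 were called lower in shKDM3B_ATRA than in shNC_ATRA. The summed levels of both lists did not overlap between any pair of groups, and their part in the members' values was not tested. Of 12 markers of other cell types, 7 stayed under 1 CPM in every library, and the erythroid marker HBB was at 0. The endothelial and myeloid marker PECAM1 had 28.7 to 99.6 CPM, EPCAM 13.1 to 18.9, the B-cell marker CD79A 1.28 to 16.4, and CD3D up to 1.13. PECAM1 and CD79A were called higher with ATRA in shNC cells and in shKDM3B cells, and CD79A lower in shKDM3B_ATRA than in shNC_ATRA, and other markers of the list are not described here. The part of these markers in the members' values was not tested.

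Relative to the summed length of their exons, the most abundant members in shNC cells were TRIM28, a corepressor that binds HP1 proteins, at 160.0 CPM per kb, and the HP1 protein CBX3 at 119 CPM per kb (means of 2 libraries). HDAC1 followed at 60.3 CPM per kb, then the maintenance DNA methyltransferase DNMT1 at 49.8 and the H3K4 methyltransferase subunit WDR5 at 47.1. The length sums all annotated exons of a gene, which need not lie in one transcript, and was 15379 bp for DNMT1 and 4306 bp for TRIM28. Without division by length, DNMT1 was above TRIM28 in shNC cells, at means of 767 and 689 CPM. At the other end, SETD7 had 1.206 CPM per kb, TET2 1.201, HDAC9 0.0909 and CBX7 0.0764. EHMT2 and RING1 were practically uncounted, with 1 read or none in each of the 8 libraries, where 3 reads correspond to 0.0920 to 0.316 CPM. Both lie in one stretch of chromosome 6, from 31879759 to 33212722 (hg38), in which 39 of 47 protein-coding genes (83.0%) stayed under 1 CPM in every library, compared with 398 of 871 (45.7%) on the rest of that chromosome. The values of EHMT2, which encodes the H3K9 methyltransferase G9a, and of RING1, a Polycomb E3 ligase, are therefore given with this property of their neighborhood, whose part in them was not tested. In bulk RNA, fewer cells that express a gene and less RNA per cell cannot be told apart.

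In untreated cells, KDM3B silencing went with higher mRNA of 5 members and lower mRNA of 0, of 49 that were tested. A gene was called when the unadjusted P of edgeR's quasi-likelihood test lay under 0.05 and the fold change reached 1.5, the thresholds of the study. The 5 were KDM5B (an H3K4 demethylase), TET1 (a 5-methylcytosine oxidase), SETD7 (an H3K4 monomethyltransferase), ASH1L (an H3K36 methyltransferase) and the class IIa deacetylase HDAC9. They were 10.2% of the tested members, and 7.01% of all 13855 genes tested were called, 3.48% higher and 3.53% lower. The median log2 fold change was 0.14 for the members and 0.00 for all genes. With adjusted p-values under 0.05 (Benjamini-Hochberg over all genes) edgeR called 0 members and, at the same fold, 0.0217% of all genes (3 genes, all lower), against 8 members and 10.2% of all genes at an unadjusted P under 0.05 and any fold. DESeq2 called KDM5B, SETD7 and TET1 at an adjusted p under 0.05, with 1.95% of all genes. With 2 libraries a group an exact permutation test cannot give a two-sided p below 0.333, and the p-values measure the spread between these libraries, which may be technical. Groups that did not overlap, as described for single members below, reach only this 0.333. Members that were not called were among them, such as KDM1B, SUZ12 and WDR5 in untreated cells, and the share over all genes was not determined. Without shNC replicate 2 the count was 10 (9 higher and 1 lower), when 11.6% of all genes were called, as ASH1L was no longer called and DNMT1, DNMT3B, HDAC4, TET2 and CBX8 were added as higher and BMI1 as lower.

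With ATRA, the shKDM3B cells had higher mRNA of 4 members and lower mRNA of 0 than shNC_ATRA cells, of 48 tested: KDM5B, TET1, TET2 and HDAC9. These were 8.33% of the members, and 6.79% of all 14281 genes were called, 2.42% higher and 4.37% lower. KDM5B and TET1 were called higher in both knockdown comparisons, which share no library but use the same kinds of transduced cells. HDAC9 was too, but with ATRA it passed the low-count filter only through the group in which it is high. The medians were 0.02 for members and 0.03 for all genes, and 25 members lay above 0 and 23 below. At an adjusted p under 0.05 edgeR called 0 members and 0 of all genes, against 6 members and 9.68% of all genes at an unadjusted P under 0.05 and any fold, and DESeq2 called KDM5B, with 3.32% of all genes. Without shNC_ATRA replicate 1, so that all 3 remaining libraries had about the same share of reads outside genes, 8 members were called, all higher, ASH1L, CBX5, DNMT1 and SETD2 being added, and 17.0% of all genes were called. Of these, DNMT1, SETD2 and ASH1L lay on the other side of 0 without shNC_ATRA replicate 2, at -0.46, -0.31 and -0.25 against 0.75, 0.73 and 1.06, and were then not called. Without shNC_ATRA replicate 2 there were 4 higher, with BMI1 in place of TET2, and 4 lower (SETD1A, SETD1B, SETD7 and SUV39H1), with 36.4% of all genes. Without either shKDM3B_ATRA library only KDM5B was called among the members, with 0.889% and 1.88% of all genes.

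**Figure D1:**
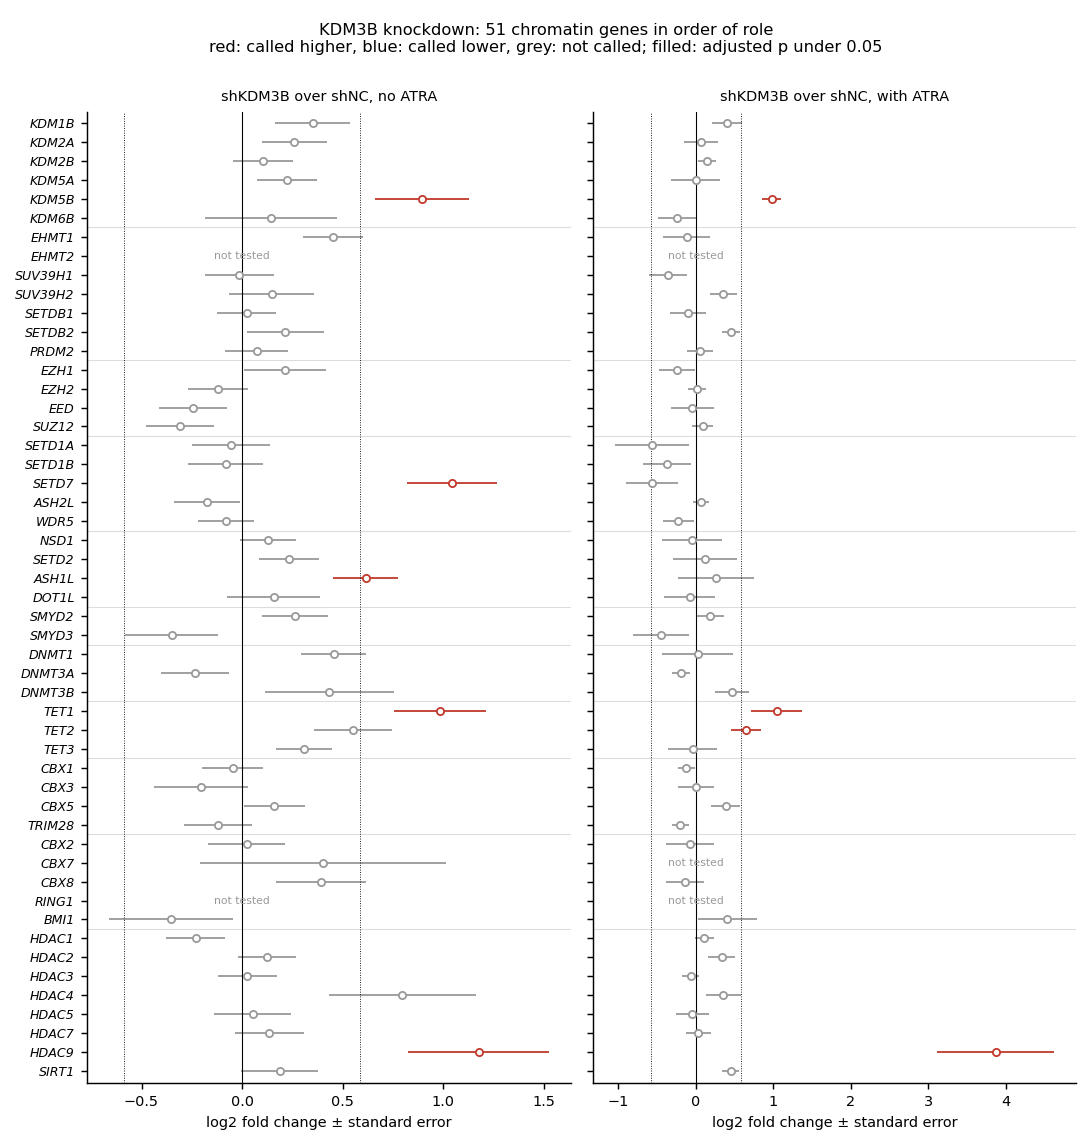
Log2 fold change (x axis, ± standard error) of each of the 51 members (rows, in order of role) between shKDM3B and shNC cells without ATRA (left) and with ATRA (right), each from 2 against 2 libraries. Red points were called higher and grey points were not called, open points had an adjusted p of 0.05 or more, and dotted lines mark a fold change of 1.5. KDM5B, TET1 and HDAC9 are red in both panels, and SETD7 is red at 1.04 on the left and grey at -0.57 on the right.

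ATRA in shNC cells went with higher mRNA of 2 members (KDM6B and SETDB2) and lower mRNA of 7 (CBX2, DNMT3B, HDAC9, KDM5B, SETD7, SMYD2 and HDAC7), of 49 tested. This was 18.4% of the members, whereas 25.9% of all 12429 genes tested were called, 15.0% higher and 10.8% lower. The median log2 fold change was -0.23 in the members and 0.02 in all genes. At an adjusted p under 0.05 and the same fold, 4 members were called (KDM6B higher, CBX2, DNMT3B and HDAC9 lower), with 12.9% of all genes, 7.84% higher and 5.06% lower. HDAC9 entered this comparison, too, only through the group in which it is high. Without shNC_ATRA replicate 2, so that all libraries had fewer than 10% of reads outside genes, 8 members were called, 2 higher and 6 lower, with 24.7% of all genes. Without shNC_ATRA replicate 1 there were 19, 3 higher and 16 lower, with ASH1L, CBX5, DNMT1, DOT1L, NSD1, SETD1A, SETD2, TET1 and WDR5 added as lower and EED as higher, when 38.4% of all genes were called. Without shNC replicate 1 or 2 there were 5 and 4, with 11.9% and 11.1% of all genes, and scaling by library size alone gave 1 higher and 10 lower, with 26.6%.

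In shKDM3B cells, ATRA treatment went with higher mRNA of 5 members and lower mRNA of 17, of 49 tested (44.9%), and 42.2% of all 12756 genes tested were called, 24.0% higher and 18.3% lower. All 22 also had an adjusted p under 0.05, as did 40.2% of all genes at the same fold, 23.0% higher and 17.3% lower. The members' median log2 fold change was -0.30, and that of all genes 0.04. CBX2, DNMT3B, HDAC9, KDM5B, SETD7, SMYD2 and HDAC7 were called lower and KDM6B and SETDB2 higher, as in shNC cells. With single libraries left out the count was 18 to 23, with 37.3 to 46.1% of all genes, and 14 of the 22 kept their call each time. The share of all called genes that kept their call in this way was not determined. The 22 coincide with the split in reads outside genes and carry that limit throughout.

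**Figure D2:**
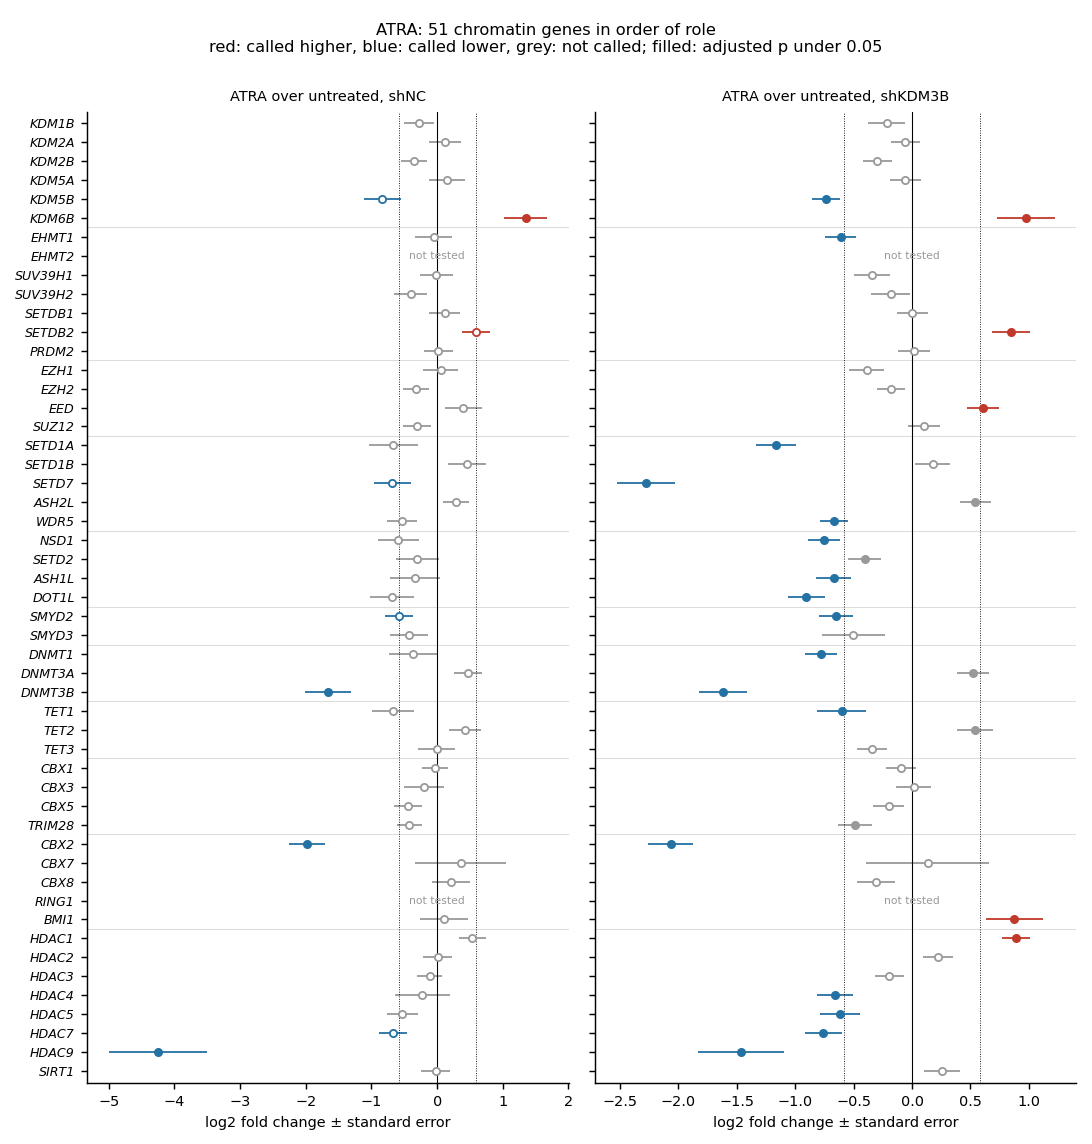
Log2 fold change (x axis, ± standard error, with a different range in each panel) of the 51 members (rows, in order of role) between ATRA-treated and untreated cells, in shNC cells (left) and shKDM3B cells (right), 2 against 2 libraries each. Red points were called higher, blue points lower, and filled points had an adjusted p under 0.05. Of the called members, 9 are on the left and 22 on the right, and CBX2 lies at -1.98 and -2.07.

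Whether the shKDM3B and shNC cells responded differently to ATRA was tested with an interaction term, fitted to the 8 libraries together. At an adjusted p under 0.05, 0 of 49 members differed with edgeR and 0 with DESeq2, and 0 of 13528 genes did with edgeR. At an unadjusted P under 0.05 there were 2 members with either tool, SETD7 and HDAC9, and 4.49% of all genes with edgeR. HDAC9 was counted 1 time in each shNC_ATRA library and passed the low-count filter through other groups, so its value is a description. Having been called under ATRA in one kind of cell and not in the other, as NSD1, DOT1L or DNMT1 were, is thus not shown to be a difference between them.

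Among the demethylases of H3K4, H3K36 and H3K27, KDM5B was called higher under knockdown with and without ATRA. It lies on the minus strand of chromosome 1 from 202724495 to 202808487 (hg38, GENCODE v44) and had 82.6 and 140.4 CPM in shNC, 209.5 and 205 in shKDM3B, 58.3 and 63.7 in shNC_ATRA and 125 and 115 in shKDM3B_ATRA. The groups did not overlap in either knockdown comparison, and the shNC libraries were the farthest apart. The log2 fold change under knockdown was 0.89 (standard error 0.23, edgeR adjusted p = 0.208) without ATRA and 0.98 (0.12, edgeR adjusted p = 0.502) with it. Without shNC replicate 1, the lower control, the first value was 0.56 and no longer a call. The second was 0.92 without shNC_ATRA replicate 1 and 1.04 without replicate 2, on either side of the split. With ATRA KDM5B was called lower, at -0.83 (0.28, edgeR adjusted p = 0.108) in shNC cells, where it was -0.77 and -0.93 without shNC_ATRA replicate 1 and 2, both called, and leaving out shNC replicate 2 gave -0.41 and no call, and at -0.74 (0.12, edgeR adjusted p = 0.000814) in shKDM3B cells. Knockdown and ATRA thus lay in opposite directions for this gene.

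KDM6B, the H3K27 demethylase also known as JMJD3, moved with ATRA. It spans chromosome 17 from 7834217 to 7854796, and its levels were 16.3 and 27.4 CPM in shNC, 17.3 and 30.8 in shKDM3B, 65.0 and 43.5 in shNC_ATRA and 43.9 and 47.8 in shKDM3B_ATRA. Every ATRA library was above every untreated one, and the replicate 2 libraries of the untreated groups were the higher ones. The log2 fold change with ATRA was 1.35 (standard error 0.32, edgeR adjusted p = 0.0363) in shNC cells and 0.97 (0.24, edgeR adjusted p = 0.00878) in shKDM3B cells. In shNC cells it was 1.58 without shNC_ATRA replicate 2 and 1.03 without replicate 1, both called. Without shNC replicate 1 it was 0.99 and without shKDM3B replicate 1 the second value was 0.57, neither a call. The H3K4 and H3K36 demethylases KDM1B, KDM2A, KDM2B and KDM5A passed no call in any of the 4 comparisons.

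**Figure D3:**
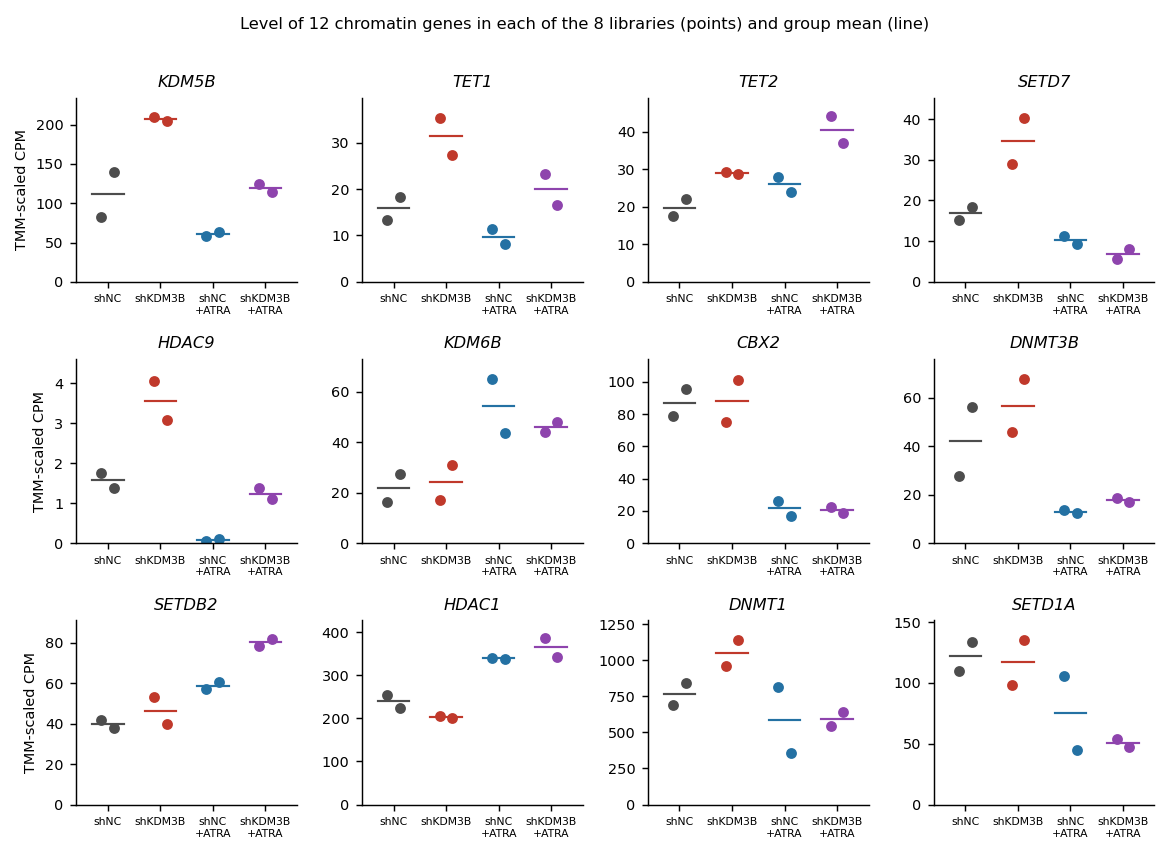
TMM-scaled CPM (y axis, from 0, a different range in each panel) of 12 members in each of the 8 libraries, by group (x axis), with points for libraries and a line for the mean of 2. KDM5B and TET1 are higher in shKDM3B than in shNC cells with and without ATRA, CBX2 and DNMT3B are lower in every ATRA library, and SETD1A and DNMT1 show shNC_ATRA libraries far apart.

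Of the H3K9 methyltransferases, which act on the lysine that KDM3B demethylates, 6 of 7 could be tested (EHMT2 could not). Under knockdown 0 were called in either setting, where 7.01% and 6.79% of all genes were. EHMT1, the partner of G9a, had 53.4 and 57.1 CPM in shNC, 73.5 and 77.7 in shKDM3B, 65.1 and 39.0 in shNC_ATRA and 49.0 and 46.6 in shKDM3B_ATRA. The untreated groups did not overlap, but the log2 fold change of 0.45 lay below the fold threshold. EHMT1 fell with ATRA in shKDM3B cells by 0.61 on the log2 scale (standard error 0.13, edgeR adjusted p = 0.0043), and by 0.57, short of a call, without shKDM3B replicate 2 or without shKDM3B_ATRA replicate 2. SETDB2 had 41.8 and 38.0 CPM in shNC, 53.2 and 39.6 in shKDM3B, 57.1 and 60.5 in shNC_ATRA and 78.5 and 82.0 in shKDM3B_ATRA. The ATRA groups of SETDB2 were above the untreated groups, and shKDM3B_ATRA was above shNC_ATRA by 0.45, below the fold threshold. With ATRA its log2 fold change was 0.59 in shNC cells (0.21, edgeR adjusted p = 0.12), near the threshold and not a call without any of 3 single libraries (shNC replicate 1 at 0.63, shNC replicate 2 at 0.51, shNC_ATRA replicate 2 at 0.52) but 0.63 and a call without shNC_ATRA replicate 1, and 0.85 in shKDM3B cells (0.16, edgeR adjusted p = 0.00223). The HP1-coupled enzymes SUV39H1, SUV39H2 and SETDB1 and the zinc finger protein PRDM2 were not called in any comparison, and 21.2% of the exon length of SUV39H1 and 12.9% of that of SETDB1 overlap exons on the opposite strand.

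Of the H3K4 methyltransferases, SETD7 lay above its control under knockdown in untreated cells and below it with ATRA. This gene, on the minus strand of chromosome 4 from 139495941 to 139606699, had 15.3 and 18.3 CPM in shNC, 28.9 and 40.2 in shKDM3B, 11.2 and 9.22 in shNC_ATRA and 5.58 and 8.14 in shKDM3B_ATRA. The groups did not overlap in any of the 4 pairwise comparisons. The log2 fold change under knockdown was 1.04 (standard error 0.22, edgeR adjusted p = 0.148) in untreated cells, a call with any single library left out, and -0.57, no call, with ATRA, where it was -0.71, a call, without shNC_ATRA replicate 2 and -0.41 without replicate 1. ATRA went with -0.68 in shNC cells (0.29, edgeR adjusted p = 0.178), not a call without shNC replicate 1 (-0.83), shNC replicate 2 (-0.56) or shNC_ATRA replicate 2 (-0.57) but a call without shNC_ATRA replicate 1 (-0.83), and with -2.28 in shKDM3B cells (0.25, edgeR adjusted p = 6.28e-05). The difference between these responses was -1.62 on the log2 scale (0.38), with an unadjusted P of 0.00373 and an edgeR adjusted p of 1.00. It was -1.46 without shNC_ATRA replicate 1, where both ATRA groups had about the same share of reads outside genes, and -1.76 without replicate 2, where its adjusted p was 0.0394. Over all the alternatives that p ranged from 0.0394 to 1.00, and the first of these values rests on ATRA libraries that differ in that share.

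SETD1A, the catalytic subunit of an H3K4 methyltransferase complex, showed how far the shNC_ATRA libraries could lie apart. It had 109.9 and 134 CPM in shNC, 98.7 and 136 in shKDM3B, 105 and 44.6 in shNC_ATRA and 54.0 and 46.9 in shKDM3B_ATRA. The 3 libraries with about 50% of reads outside genes were together at the low end, and the shNC_ATRA library with few such reads was at the level of untreated cells. In shKDM3B cells SETD1A fell with ATRA by 1.16 on the log2 scale (standard error 0.17, edgeR adjusted p = 0.000478). Against shNC_ATRA, the log2 fold change of shKDM3B_ATRA was -0.57, but 0.19 without shNC_ATRA replicate 1 and -1.06 without replicate 2. The split moves with this gene, and its part in these values was not tested beyond these figures.

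The core subunits WDR5 and ASH2L, shared by the H3K4 complexes, differed in direction under ATRA. WDR5 had 176 and 166 CPM in shNC, 160.1 and 164 in shKDM3B, 133 and 97.4 in shNC_ATRA and 96.3 and 100.2 in shKDM3B_ATRA. ASH2L had 92.9 and 79.01 CPM in shNC, 81.8 and 70.6 in shKDM3B, 102 and 102 in shNC_ATRA and 109 and 105 in shKDM3B_ATRA. In shKDM3B cells WDR5 fell by 0.67 on the log2 scale (standard error 0.12, edgeR adjusted p = 0.0014) and ASH2L rose by 0.54 (0.13, edgeR adjusted p = 0.00757), the latter under the fold threshold. In shNC cells WDR5 was at -0.54 and not called (-0.78, a call, and -0.36, no call, without shNC_ATRA replicate 1 and 2). SETD1B was called in no comparison with all libraries. With ATRA in shNC cells SETD1B was at 0.01 without shNC_ATRA replicate 1. Without replicate 2 it was at 0.76 and was called higher, whereas SETDB2 was not.

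The genes for the H3K36 methyltransferases NSD1, SETD2 and ASH1L and the H3K79 methyltransferase DOT1L each had shNC_ATRA replicate 2 as their lowest library. NSD1 had 208 and 224 CPM in shNC, 240.4 and 232 in shKDM3B, 184 and 95.6 in shNC_ATRA and 151 and 119 in shKDM3B_ATRA. SETD2 had 152 and 138 CPM in shNC, 179 and 161 in shKDM3B, 154 and 75.2 in shNC_ATRA and 138 and 109.7 in shKDM3B_ATRA. In both genes the shNC_ATRA libraries were farther apart than those of any other group. DOT1L had 117 and 182 CPM in shNC, 142 and 191 in shKDM3B, 117 and 64.9 in shNC_ATRA and 87.7 and 84.0 in shKDM3B_ATRA. With ATRA in shKDM3B cells NSD1 fell by 0.75 on the log2 scale (standard error 0.14, edgeR adjusted p = 0.00179), DOT1L by 0.91 (0.16, edgeR adjusted p = 0.00116) and SETD2 by 0.41 (0.14, edgeR adjusted p = 0.0394), the last under the fold threshold. In shNC cells none of the 4 was called with all libraries, NSD1 being at -0.59 and DOT1L at -0.68, whereas without shNC_ATRA replicate 1 they were at -1.14 and -1.17. Without shNC_ATRA replicate 2, among libraries with few reads outside genes, they were at -0.22 and -0.35, neither a call. SETD2 was at -0.91 and 0.10 without shNC_ATRA replicate 1 and 2.

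ASH1L, of the same group, was called higher under knockdown in untreated cells. Its levels on chromosome 1 from 155335268 to 155563162 were 84.4 and 79.7 CPM in shNC, 138 and 113 in shKDM3B, 90.4 and 36.8 in shNC_ATRA and 82.7 and 69.3 in shKDM3B_ATRA. The log2 fold change of 0.61 (standard error 0.16, edgeR adjusted p = 0.207) lay just past the threshold, and it was 0.58 without shNC replicate 2 and 0.46 without shKDM3B replicate 1, neither a call. With ATRA in shKDM3B cells ASH1L fell by 0.67 on the log2 scale (0.15, edgeR adjusted p = 0.00489), with 0.57 without shKDM3B replicate 1 and 0.55 without shKDM3B_ATRA replicate 2 below the fold threshold. In shNC cells the value was -0.34, but -1.12 without shNC_ATRA replicate 1 and 0.15 without replicate 2.

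The lysine methyltransferase SMYD2 had 35.2 and 39.3 CPM in shNC, 44.03 and 45.4 in shKDM3B, 24.5 and 24.0 in shNC_ATRA and 26.8 and 28.2 in shKDM3B_ATRA. All ATRA libraries were below all untreated ones, and the shNC_ATRA libraries were nearly equal. The log2 fold change with ATRA was -0.59 in shNC cells (standard error 0.21, edgeR adjusted p = 0.127), at the fold threshold, and SMYD2 fell by 0.65 in shKDM3B cells (0.15, edgeR adjusted p = 0.00503). In shNC cells it was -0.60 without either shNC_ATRA library, a call, but neither -0.69 without shNC replicate 1 nor -0.52 without shNC replicate 2 was a call. SMYD3, at 6.53 to 19.1 CPM, was not called with all libraries but was called lower with ATRA in shKDM3B cells without shKDM3B replicate 1 or without shKDM3B_ATRA replicate 2.

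Among the Polycomb repressive complex 2 genes, which encode the H3K27 methyltransferases EZH1 and EZH2 and their partners EED and SUZ12, 0 of 4 were called under knockdown in either setting, where 7.01% and 6.79% of all genes were. EED, which binds the mark the complex makes, had 73.8 and 62.5 CPM in shNC, 62.4 and 52.8 in shKDM3B, 66.8 and 108 in shNC_ATRA and 84.4 and 84.5 in shKDM3B_ATRA. Its shNC_ATRA libraries were again apart, with replicate 2 the higher one. EED rose by 0.61 on the log2 scale with ATRA in shKDM3B cells (standard error 0.14, edgeR adjusted p = 0.00544) and was at 0.49, no call, without shKDM3B replicate 2. The call was also lost with DESeq2, scaling by library size alone, no low-count filter and the fit of all 8 libraries. EZH2 lay between 117 and 167 CPM, SUZ12 between 125 and 187, and EZH1 between 31.4 and 46.96 CPM in the 8 libraries, with no call in any comparison.

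CBX2, a chromodomain subunit of Polycomb repressive complex 1 that reads H3K27 methylation, had the lowest adjusted p of all members in both ATRA comparisons. Its levels were 78.6 and 95.4 CPM in shNC, 75.2 and 101 in shKDM3B, 26.1 and 17.0 in shNC_ATRA and 22.2 and 18.5 in shKDM3B_ATRA. The lowest untreated library was above the highest ATRA library by more than the spread within any group. CBX2, on chromosome 17 from 79778148 to 79787983, fell by 1.98 on the log2 scale (standard error 0.28, edgeR adjusted p = 0.0045) in shNC cells, which is 3.94-fold, and by 2.07 (0.19, edgeR adjusted p = 2e-05) in shKDM3B cells. In shNC cells the value was -1.73 without shNC_ATRA replicate 2, among libraries with few reads outside genes, and -2.32 without replicate 1, both called. CBX8, whose gene lies next to it on the opposite strand from 79792132 to 79801683, had 16.1 to 26.4 CPM and no call.

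BMI1, a RING finger subunit of the same complex, had 32.7 and 21.3 CPM in shNC, 27.1 and 15.4 in shKDM3B, 19.3 and 37.4 in shNC_ATRA and 38.7 and 36.1 in shKDM3B_ATRA. Replicate 1 was the higher library in both untreated groups and the lower one in shNC_ATRA. In shKDM3B cells BMI1 rose by 0.88 on the log2 scale with ATRA (standard error 0.25, edgeR adjusted p = 0.0148), and it was at 0.52, no call, without shKDM3B replicate 2. In shNC cells it was at 0.51 without shNC_ATRA replicate 1 and at -0.48 without replicate 2, among libraries with few reads outside genes, neither a call. CBX7 had 0.301 to 1.00 CPM and was too low to be tested between the ATRA groups.

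The de novo DNA methyltransferase DNMT3B fell with ATRA, and the other DNA methyltransferases each behaved in their own way. DNMT3B, on chromosome 20 from 32762385 to 32809359, had 27.8 and 56.2 CPM in shNC, 45.9 and 67.5 in shKDM3B, 13.6 and 12.3 in shNC_ATRA and 18.7 and 17.0 in shKDM3B_ATRA. Within each untreated group the libraries were farther apart than the group means, and all ATRA libraries were below them. DNMT3B fell by 1.66 on the log2 scale (standard error 0.35, edgeR adjusted p = 0.023) in shNC cells. In shKDM3B cells it fell by 1.62 (0.21, edgeR adjusted p = 0.000179). Without shNC_ATRA replicate 2 the first value was -1.62 and without replicate 1 it was -1.74, both called. It varied more with the control libraries, from -2.11 without shNC replicate 1 to -1.08 without shNC replicate 2, both called.

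DNMT1 had 691 and 842 CPM in shNC, 960.3 and 1141 in shKDM3B, 811 and 354 in shNC_ATRA and 541 and 640.3 in shKDM3B_ATRA. The shNC_ATRA libraries were farther apart than those of any other group, as in SETD1A and ASH1L. In untreated cells the knockdown groups did not overlap, with a log2 fold change of 0.45 under the fold threshold. With ATRA DNMT1 fell by 0.78 on the log2 scale (standard error 0.14, edgeR adjusted p = 0.00132) in shKDM3B cells. In shNC cells it was at -0.37, at -1.08 without shNC_ATRA replicate 1 and at 0.09 without replicate 2. DNMT3A, the other de novo enzyme, had 45.4 and 54.6 CPM in shNC, 41.0 and 44.03 in shKDM3B, 68.6 and 66.6 in shNC_ATRA and 56.5 and 61.4 in shKDM3B_ATRA. It rose by 0.52 with ATRA in shKDM3B cells (0.14, edgeR adjusted p = 0.0121), under the fold threshold, and was not called in shNC cells.

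The TET enzymes oxidize 5-methylcytosine and so start its removal, and TET1 and TET2 were both higher in the knockdown libraries. TET1, on chromosome 10 from 68560337 to 68694487, had 13.4 and 18.3 CPM in shNC, 35.4 and 27.4 in shKDM3B, 11.3 and 8.12 in shNC_ATRA and 23.3 and 16.6 in shKDM3B_ATRA. TET2, on chromosome 4 from 105145875 to 105279816, had 17.6 and 21.9 CPM in shNC, 29.4 and 28.7 in shKDM3B, 27.8 and 24.1 in shNC_ATRA and 44.1 and 37.1 in shKDM3B_ATRA. The shKDM3B groups of both genes lay above their controls without overlap, with and without ATRA. In untreated cells such separation was also seen in members that were not called, such as KDM1B. For TET1 the log2 fold change under knockdown was 0.98 (standard error 0.23, edgeR adjusted p = 0.17) in untreated cells, called with any single library left out, and 1.04 (0.33, edgeR adjusted p = 0.508) with ATRA. The second was 1.30 without shNC_ATRA replicate 1 and 0.82 without replicate 2, both called, but 0.78 without shKDM3B_ATRA replicate 1 and 1.27 without replicate 2, with unadjusted P of 0.216 and 0.0834. For TET2 the values were 0.55, under the fold threshold, and 0.65 (0.19, edgeR adjusted p = 0.502), the latter not a call without either shKDM3B_ATRA library (0.52 and 0.77) or without shNC_ATRA replicate 2 (0.54), and at 0.76 a call without shNC_ATRA replicate 1.

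With ATRA the same enzymes lay on different sides of 0. TET1 fell by 0.60 on the log2 scale in shKDM3B cells (standard error 0.21, edgeR adjusted p = 0.0381), a call that needed shKDM3B replicate 1 (-0.46 without it) and shKDM3B_ATRA replicate 2 (-0.38 without it), and it was at -0.67 with no call in shNC cells (-0.93, a call, and -0.48, no call, without shNC_ATRA replicate 1 and 2). TET2 rose by 0.54 in shKDM3B cells (0.16, edgeR adjusted p = 0.0173), under the fold threshold, and was at 0.43 with no call in shNC cells. TET3 had 79.6 to 139 CPM and no call.

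Of the HP1 genes CBX1, CBX3 and CBX5, whose products read H3K9 methylation, and TRIM28, 0 of 4 were called with all libraries in any of the 4 comparisons, where 7.01, 6.79, 25.9 and 42.2% of all genes were. TRIM28 had 645 and 733 CPM in shNC, 550.3 and 718 in shKDM3B, 507 and 498 in shNC_ATRA and 425 and 447 in shKDM3B_ATRA. All ATRA libraries were below all untreated ones. In shKDM3B cells TRIM28 fell by 0.49 on the log2 scale with ATRA (standard error 0.14, edgeR adjusted p = 0.0189), under the fold threshold, and by 0.72, a call, without shKDM3B replicate 1. Without shNC_ATRA replicate 1, CBX5 was called higher under knockdown with ATRA (0.59) and lower with ATRA in shNC cells (-0.63). CBX3 ranged from 398 to 709.6 CPM, CBX5 from 238 to 461 and CBX1 from 108 to 129.7.

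Among the deacetylases, HDAC9 was called in each of the 4 pairwise comparisons, at a low level. In both that include shNC_ATRA it passed the low-count filter only through the other group, so it had to differ there, and its values in them are a description. Its interaction value also rests on shNC_ATRA and is likewise a description. The gene spans chromosome 7 from 18086949 to 19002416 and was counted 35 and 33 times in shNC, 79 and 100 times in shKDM3B, 1 and 1 time in shNC_ATRA and 13 and 11 times in shKDM3B_ATRA, or 1.76 and 1.38, 4.06 and 3.07, 0.0613 and 0.0922, and 1.37 and 1.11 CPM. No 2 groups compared overlapped, and the shNC_ATRA libraries were near 0 on both sides of the split. In untreated cells the log2 fold change under knockdown was 1.18 (standard error 0.35, edgeR adjusted p = 0.268), and 0.97 with no call without shKDM3B replicate 1. With ATRA the ratio of knockdown to control was 16.8 after scaling, from 24 counts against 2, with a 95% interval of 4.16 to 146 that covers counting error only (edgeR adjusted p = 0.502, log2 fold change 3.87 in the fit), and the fitted value was 3.59 and 4.12 without shNC_ATRA replicate 1 and 2, both called, but no call without shKDM3B_ATRA replicate 2 (4.02) and could not be tested without replicate 1, when the gene was removed as too low. With ATRA the count fell in shNC cells from 68 to 2, a ratio of 21.1 after scaling (5.62 to 178, edgeR adjusted p = 0.0109), and HDAC9 fell by 1.46 on the log2 scale in shKDM3B cells (0.37, edgeR adjusted p = 0.00893). The interaction was 2.76 (0.71), with an unadjusted P of 0.00567 and an edgeR adjusted p of 1.00, and over the alternatives that p ranged from 0.134 to 1.00.

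Of the other class IIa deacetylases, HDAC7 was called lower with ATRA in both kinds of cells, and HDAC4 and HDAC5 in shKDM3B cells, where ATRA coincides with the split, but not in shNC cells. HDAC7 had 101 and 121 CPM in shNC, 109 and 134 in shKDM3B, 66.1 and 69.8 in shNC_ATRA and 61.7 and 76.8 in shKDM3B_ATRA. HDAC5 had 24.7 and 31.0 CPM in shNC, 28.5 and 29.4 in shKDM3B, 19.0 and 18.6 in shNC_ATRA and 19.9 and 16.5 in shKDM3B_ATRA. Every ATRA library of both genes was below every untreated one. HDAC7 was at -0.67 in shNC cells (standard error 0.21, edgeR adjusted p = 0.084), with -0.63 and -0.74, both called, without shNC_ATRA replicate 1 and 2 and -0.55 and no call without shNC replicate 2, and fell by 0.76 in shKDM3B cells (0.16, edgeR adjusted p = 0.00342), where HDAC5 fell by 0.62 (0.17, edgeR adjusted p = 0.0142), or by 0.48 with no call without shKDM3B_ATRA replicate 2. Exons on the opposite strand cover 24.0% of the exon length of HDAC5 and 11.2% of that of HDAC7. HDAC4 had 16.2 and 41.2 CPM in shNC, 45.4 and 54.3 in shKDM3B, 27.2 and 20.7 in shNC_ATRA and 31.8 and 29.1 in shKDM3B_ATRA. Its shNC libraries were the most unequal in that group among the 47 members over 1 CPM, and the log2 fold change of 0.80 under knockdown was not a call. It ranged from 0.28 without shNC replicate 1, the lower control, to 1.63 without shNC replicate 2, and was a call in the latter fit and without either shKDM3B library (0.92 and 0.65). With ATRA HDAC4 fell by 0.66 in shKDM3B cells (0.16, edgeR adjusted p = 0.00679), or by 0.52 with no call without shKDM3B replicate 2.

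HDAC1, a class I enzyme of the NuRD and Sin3 complexes, went the other way. It had 255 and 223 CPM in shNC, 206 and 202 in shKDM3B, 339.7 and 339 in shNC_ATRA and 386 and 343 in shKDM3B_ATRA. All ATRA libraries were above all untreated ones, and the shNC_ATRA libraries were nearly equal. HDAC1 rose by 0.89 on the log2 scale in shKDM3B cells (standard error 0.12, edgeR adjusted p = 0.000266), and it was at 0.54, under the fold threshold, in shNC cells. HDAC2 and HDAC3 and the NAD-dependent deacetylase SIRT1 were not called in any comparison, SIRT1 being at 0.45 in shKDM3B_ATRA over shNC_ATRA.

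The spread between the libraries of a group was itself uneven over the members. In shNC_ATRA, 11 of 47 members with over 1 CPM were at least 1.5-fold higher in replicate 1, namely KDM5A, EHMT1, SETD1A, SETD1B, NSD1, SETD2, ASH1L, DOT1L, DNMT1, TET3 and CBX2, and EED and BMI1 were at least 1.5-fold higher in replicate 2. The 11 had a median summed exon length of 12943 bp, compared with 7392 bp for all 47. Across the 47 genes, which share libraries and are not independent, the Spearman rho of the log2 ratio of replicate 1 to 2 with exon length was 0.40 in shNC_ATRA, -0.39 in shNC, -0.11 in shKDM3B and 0.19 in shKDM3B_ATRA. The number of members that differed at least 1.5-fold between libraries was 13 in shNC_ATRA, 7 in shNC, 2 in shKDM3B and 1 in shKDM3B_ATRA. Neither these counts nor the rho were computed over all genes, so they are not shown to be particular to the members.

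Other genes of the same pathways, 81 in all and kept as a list apart from the members, were examined in the same fits. Of 80 tested in untreated cells, 1 was called higher (JARID2, a Polycomb cofactor, at 0.66) and 1 lower (PCGF6, at -0.72), and of 78 tested with ATRA, 1 higher (RNF2, the partner of BMI1, at 0.65) and 2 lower (the bromodomain reader BRD2 at -3.11 and the deacetylase SIRT2 at -0.86). BRD2 lies in the stretch of chromosome 6 described for EHMT2 and RING1, whose part in its values was not tested. With ATRA, 5 were called higher and 6 lower of 79 in shNC cells, and 6 and 19 of 79 in shKDM3B cells, which is 13.9% and 31.6% beside 25.9% and 42.2% of all genes, with medians of -0.06 and -0.23. In shNC cells the 5 higher ones were SIRT5 at 1.15, KAT2B at 1.06, BRD2 at 0.90, PCGF5 at 0.72 and MBD4 at 0.69. The 6 lower ones were PHF1 at -2.55, UHRF2 at -0.65 and the arginine methyltransferases CARM1 at -0.73, PRMT1 at -0.71, PRMT5 at -0.70 and PRMT7 at -0.59. Of 22 cell cycle genes, given beside DNMT1, whose product acts at replication, 1 was called under knockdown in untreated cells and 0 with ATRA, and with ATRA 1 of 22 was called in shNC cells and 3 in shKDM3B cells. These are 4.55, 0, 4.55 and 13.6%, beside 7.01, 6.79, 25.9 and 42.2% of all genes. Their summed level was 7229 to 7863 CPM in shNC, 6990 to 7120 in shKDM3B, 5938 to 7202 in shNC_ATRA and 5806 to 6144 in shKDM3B_ATRA, and whether it bears on the members was not tested.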

How the data were processed

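RNA-seq of 8 NB4 libraries was analysed from the deposited files, in which the authors give a raw count for each gene with no normalization. Per the labels and the study's methods, reads were aligned to hg38 with HISAT2 and counted with HTSeq. The untreated files list 56470 names and the ATRA files 56609. Groups were taken from the sample titles. Each comparison of 4 libraries was fitted over all its genes with edgeR 4.0.16 (R 4.3.3; filterByExpr, TMM, quasi-likelihood test), and a standard error is the log2 fold change over the square root of F. The interaction used all 8 libraries. Alternatives were other scaling, no low-count filter, DESeq2 1.42.0, adjusted p-values, all 8 libraries in 1 fit, the replicate block and each library left out, with edgeR pooling the spread. Members and gene lists were chosen with earlier results of these data known. Per-library values are given for members with an adjusted p under 0.05 or called under knockdown. Positions and exon lengths are from GENCODE v44. Intervals cover counting error only.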

Additional observations from a re-analysis of the deposited data

How the results depend on the processing

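The number of members called was kept within 1.5 times by DESeq2, both other scalings, no low-count filter and the replicate block in all 5 comparisons, and by the fit of all 8 libraries in the 4 pairwise ones. HDAC4 under knockdown became a call without the filter and with the block. The fit of all 8 libraries lost ASH1L, BMI1, EED, HDAC4 and TET1 in shKDM3B_ATRA against shKDM3B. SETDB2 in shNC_ATRA against shNC lost its call in every one of these alternatives. Requiring an adjusted p under 0.05 with edgeR gave 0 members for shKDM3B against shNC (5 as reported), 0 for shKDM3B_ATRA against shNC_ATRA (4) and 4 for shNC_ATRA against shNC (9), and the unadjusted P gave 2 for the interaction (0). With each library left out the counts ranged from 4 to 10, from 1 to 8, from 4 to 19, from 18 to 23 and from 0 to 2 in the order of the comparisons, the last highest without shNC_ATRA replicate 2 (EHMT1 and SETD7). A replicate block gave 6, 3, 6, 22 and 0, with 8.96, 3.68, 23.2 and 42.7% of all genes in the pairwise comparisons, and 6 for shKDM3B against shNC also with adjusted p-values (5.63% of all genes). The numbers are shared by the labels only, and the deviations of same-numbered libraries correlated at 0.384, 0.0182, -0.0550 and 0.159 across genes in the 4 pairwise comparisons. Of 742 alternative values for 67 combinations of gene and comparison, 639 kept their direction and side of the threshold, 69 lost and 31 gained the call, and 3 changed sign. These were SETD1A in shKDM3B_ATRA against shNC_ATRA, at 0.19 without shNC_ATRA replicate 1 (-1.06 without replicate 2), and, in shNC_ATRA against shNC, ASH1L at 0.15 and DNMT1 at 0.0893 without shNC_ATRA replicate 2 (-1.12 and -1.08 without replicate 1). The 3 values of changed sign within the 67 were not called, and their cause was not tested. The 67 do not cover every value in the text, and signs also changed outside them between the fits without shNC_ATRA replicate 1 and 2. Examples are DNMT1 in shKDM3B_ATRA against shNC_ATRA (0.75 and -0.46) and BMI1 in shNC_ATRA against shNC (0.51 and -0.48). A fit with a lone library in a group assumes that it varies like the other group. The values of HDAC9, CBX7, EHMT2 and RING1 rest on few reads.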
